A study of Homo sapiens with 9 samples.

Results

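Transcripts of 10 genes were followed, 8 serine proteases, most of them anchored in the cell membrane, and the 2 Kunitz-type inhibitors that are bound to the same membranes. The proteases are ST14, PRSS8, PRSS3, PRSS22, PRSS27, TMPRSS4, TMPRSS11D and TMPRSS11E, and the inhibitors are SPINT1 and SPINT2. They were chosen by gene symbol as a family, with earlier results of these data known, and are 10 of the 24672 genes in the deposited tables. PRSS3 encodes a trypsinogen and PRSS22 a tryptase, both of which are known as secreted enzymes, so the name membrane-anchored does not cover every one of the 10.

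RNA was sequenced in 9 libraries of EPC2, human esophageal epithelial cells made immortal by telomerase. In 3 libraries the cells had SPINK7 silenced and were differentiated at the air-liquid interface (ALI), in 3 they carried a non-silencing control (NSC) and were differentiated in the same way, and in 3 they carried the control and were kept as an undifferentiated monolayer. SPINK7 is itself a gene for an inhibitor of serine proteases, of the Kazal type. All cells grew in keratinocyte serum-free medium with epidermal growth factor (1 ng/mL) and bovine pituitary extract (50 ug/mL). ALI cells were seeded on permeable supports in 0.09 mM calcium, received 1.8 mM calcium on day 2, met air on day 7 and gave RNA on day 14, per the labels' protocol. The names of the deposited ALI tables give day 7 instead, and some carry another replicate number than the sample titles. Groups and library numbers follow the titles here. Control ALI cultures and monolayers therefore differ in support, calcium, days and air together, and the parts of these cannot be told apart. The labels name 1 silenced population, so loss of SPINK7 and other effects of the silencing construct cannot be told apart. Nothing in the labels states that libraries of 1 group are separate cultures. The spread behind each p-value may then be technical.

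Serine proteases of this family are made as inactive precursors and are switched on by cutting, often by another member. In many epithelia matriptase (ST14) and prostasin (PRSS8) activate each other at the cell surface, and the inhibitors HAI-1 (SPINT1) and HAI-2 (SPINT2) bind and block them. Known targets include the epithelial sodium channel, pro-urokinase, the receptor PAR2 and the adhesion protein EpCAM. Transcript levels say nothing about activation or inhibition of the proteins.

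The libraries held between 7641960 and 14009746 counts, of which the 10 genes took between 0.0716% and 0.128%. SPINK7 stood at 20.9, 38.6 and 32.7 CPM (counts scaled to a common library size) in silenced ALI libraries 1, 2 and 3, against 229, 261 and 225 CPM in control ALI libraries. The ALI libraries numbered 2 stood apart. On the second principal component of log2 CPM they lay at -25.5 (silenced) and -78.5 (control), and the other 4 ALI libraries at 14.3 to 55. Summed CPM of 5 proliferation genes was 313, 9.96 and 296 in silenced ALI libraries 1, 2 and 3, 126, 18.3 and 135 in control ALI libraries and 16.9, 43.1 and 36.9 in monolayers. Summed CPM of 8 squamous markers was 45429 to 82574 in silenced ALI libraries, 34590 to 79611 in control ALI libraries and 25895 to 26616 in monolayers, and every marker was detected in every group. Most of each sum was KRT5, KRT14 and KRT6A. On silencing 0 of the 8 rose and 1 fell, where 0.226% of all tested genes rose and 0.703% fell. The marker that fell was KRT4, by 1.98 on the log2 scale (95% interval -2.71 to -1.25, adjusted p = 0.0138 in the edgeR test). Markers of other cell types were looked at as summed CPM. The 5 markers of simple epithelium summed to 201 to 338 CPM in silenced ALI libraries and 347 to 527 CPM in monolayers. In control ALI libraries they summed to 74.7 to 185 CPM, below every silenced ALI library. Nearly all of each sum was KRT8 and KRT18, with MUC5B and TFF3 at 0. KRT8 had a log2 fold change of -2.92 on differentiation (adjusted p = 0.000324) and 1.47 on silencing (adjusted p = 0.122). The 5 leukocyte markers summed to 66.6 to 87.0 CPM in silenced ALI libraries, 52.1 to 68.6 CPM in control ALI libraries and 15.4 to 29.1 CPM in monolayers, nearly all of it from CD68, which rose on differentiation by 1.30 on the log2 scale (adjusted p = 0.00363), while PTPRC and MS4A1 were at 0. The 6 fibroblast markers summed to 20.7 to 45.6 CPM in silenced ALI libraries, 12.2 to 49.2 CPM in control ALI libraries and 50.0 to 186 CPM in monolayers, mostly COL1A1, with LUM at 0. The 4 endothelial markers summed to 1.40 to 2.34 CPM in silenced ALI libraries, 3.03 to 9.62 CPM in control ALI libraries and 0.304 to 0.567 CPM in monolayers. Most of this in ALI libraries was VWF, which rose by 5.24 on differentiation (adjusted p = 0.000545). The 4 melanocyte markers summed to 0.934 to 1.99 CPM in silenced ALI libraries, 1.64 to 3.28 CPM in control ALI libraries and 0.745 to 1.98 CPM in monolayers, from PMEL and MLANA, with TYR and DCT at 0. The part of these markers in the results was not tested. Monolayer libraries 2 and 3 differed far less than other pairs of a group (chi-square per degree of freedom 1.91, against 16.8 to 160), though by more than sampling noise. Results are therefore also given without the ALI libraries numbered 2 where that changes a call.

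Differentiation separated the genes into a group that rose steeply and a group that was present throughout. PRSS3, PRSS22, PRSS27, TMPRSS4, TMPRSS11D and TMPRSS11E rose in control ALI libraries against monolayers, by 3.85 to 8.84 on the log2 scale for the 5 of them with counts in the monolayers. ST14, PRSS8, SPINT1 and SPINT2 were at 72.7 to 351 CPM on average already in the monolayers and did not pass the test. All 10 genes passed the filter on low counts, which asks for 1.04 CPM in at least 3 libraries. PRSS3, PRSS27, TMPRSS4, TMPRSS11D and TMPRSS11E reached it only in ALI libraries, so that a difference from monolayers was built into their being tested, and the counts and medians over the 10 genes against monolayers are a description. Of them 6 rose and 0 fell at an adjusted p under 0.05 (edgeR quasi-likelihood test), where 20.3% of all tested genes rose and 20.2% fell (40.5% together). Without control ALI library 2, 8 of the 10 rose, where 2528 of 12996 tested genes rose. When both ALI libraries numbered 2 were left out 9 rose, where 3222 of 12931 tested genes rose. ST14 (0.52), PRSS8 (0.86) and SPINT1 (0.60 on the log2 scale) then passed in addition. The CPM ranges of the groups did not overlap for 7 of the 10, all higher in control ALI libraries, where 27.3% of all tested genes were higher without overlap and 29.9% lower. Their median log2 fold change was 4.82 and that of all tested genes was 0.03. With PRSS3 set to its lower bound the median was again 4.82.

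**Figure D1:**
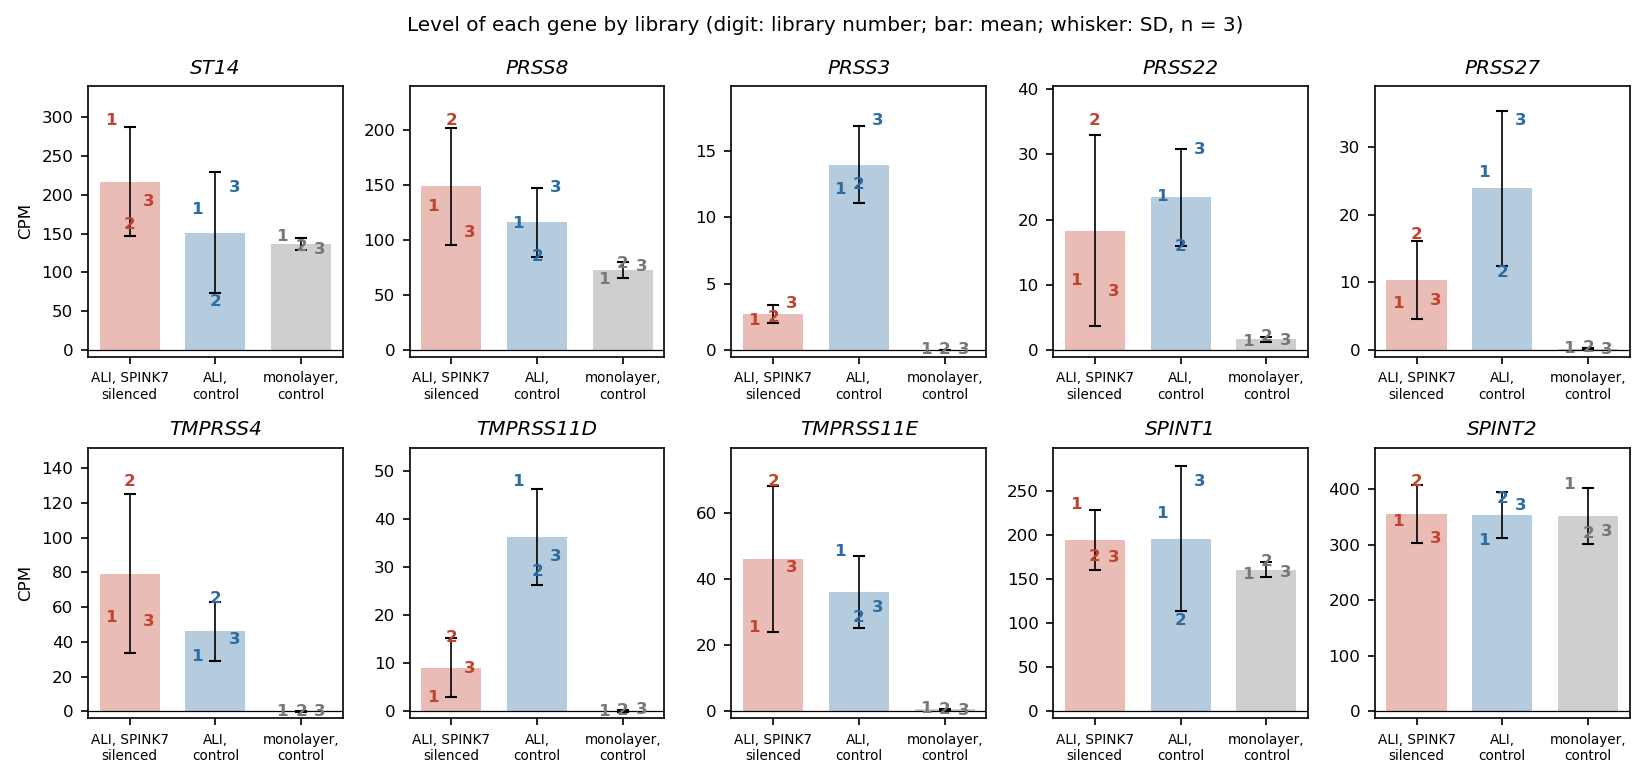
Level of each of the 10 genes in CPM on the vertical axis, by group, with the library number as the point, the mean as the bar and the SD as the whisker (n = 3). PRSS3 and TMPRSS11D lie lower in every silenced ALI library than in every control ALI library, while SPINT2 stands between 307 and 413 CPM in all 9 libraries.

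SPINK7 silencing left most of the 10 genes within the spread of the libraries. PRSS3 fell, with a mean of 2.74 CPM in silenced ALI libraries and 14.0 CPM in control ALI libraries. TMPRSS11D was also lower in every silenced library but did not pass the test. Of the 10 genes 0 rose and 1 fell, where 0.226% of all tested genes rose and 0.703% fell (0.929% together). With 1 library left out, 0 genes fell without control ALI library 1 or 3 or silenced ALI library 1 or 3, and 2 fell without silenced ALI library 2. Without silenced ALI library 2, 1.11% of all tested genes fell and 0.710% rose. When both ALI libraries numbered 2 were left out 4 fell, PRSS3, PRSS22, PRSS27 and TMPRSS11D, where 3.31% of all tested genes fell and 2.17% rose. The CPM ranges of the groups did not overlap for 2 genes, both lower after silencing, where 6.34% of all tested genes were lower without overlap and 5.76% were higher. The median log2 fold change of the 10 genes was -0.00 and that of all tested genes was 0.01.

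**Figure D2:**
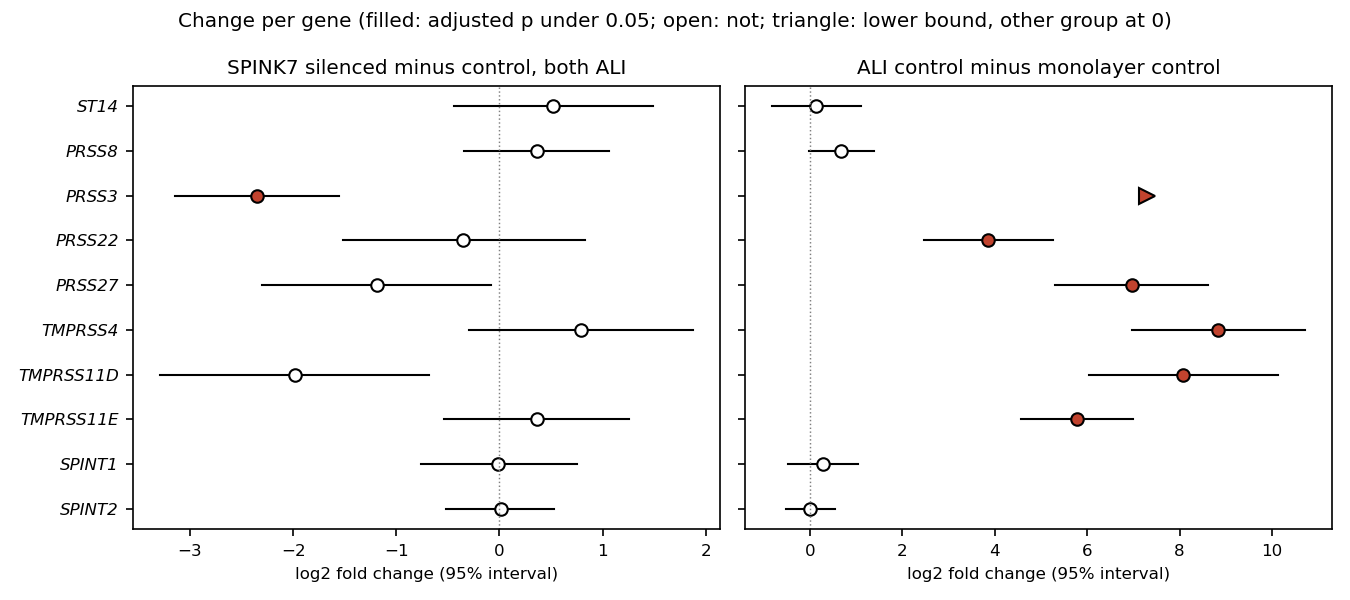
Change of each gene as log2 fold change on the horizontal axis with its 95% interval, left for silenced against control ALI libraries and right for control ALI libraries against monolayers. PRSS3 is the filled point on the left, and 6 genes are filled on the right, where PRSS3 is drawn as a triangle at its lower bound because the monolayers had 0 counts.

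Matriptase, the product of ST14 (chromosome 11, 130029682 to 130080257, plus strand, hg19), is a transmembrane protease at the head of the surface cascade. ST14 stood at 296, 162 and 192 CPM in silenced ALI libraries 1, 2 and 3, at 181, 62.7 and 210 CPM in control ALI libraries, and at 146, 134 and 130 CPM in monolayers. Control ALI libraries overlapped both other groups, silenced ALI libraries lay above the monolayers, and control ALI library 2 was far below every other library. Silencing gave a log2 fold change of 0.52 (SE 0.39, 95% interval -0.44 to 1.49, adjusted p = 0.731). On differentiation it was 0.14 (SE 0.39, adjusted p = 0.792). Without both ALI libraries numbered 2, ST14 was higher in control ALI libraries than in monolayers by 0.52 on the log2 scale (adjusted p = 0.0392). It was below 0 with limma-voom (-0.03), on both RPKM scales (-0.20 and -0.21) and without control ALI library 3 (-0.16).

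Prostasin, the product of PRSS8 (chromosome 16, 31142754 to 31147151, minus strand), is held to the membrane by a lipid anchor and works in tandem with matriptase. PRSS8 stood at 131, 209 and 107 CPM in silenced ALI libraries, at 115, 85.3 and 148 CPM in control ALI libraries, and at 64.0, 78.3 and 75.9 CPM in monolayers. Every ALI library was above every monolayer. On differentiation the log2 fold change of 0.68 (SE 0.29, 95% interval -0.03 to 1.38) missed the threshold with an adjusted p = 0.0838. It passed without control ALI library 2 (adjusted p = 0.0278), without silenced ALI library 2 (0.0461) and with both left out (0.86, adjusted p = 0.00146). Silenced ALI library 2 is in neither group of this comparison and enters only through the shared fit, and without it the log2 fold change was 0.69. Silencing gave 0.36 (SE 0.29, 95% interval -0.34 to 1.06, adjusted p = 0.738), with the highest value in silenced ALI library 2. Without both ALI libraries numbered 2 this change was -0.15 (adjusted p = 0.791).

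HAI-1, the product of SPINT1 (chromosome 15, 41136246 to 41149853, plus strand), is the main inhibitor of matriptase. SPINT1 stood at 234, 176 and 174 CPM in silenced ALI libraries, at 224, 103 and 260 CPM in control ALI libraries, and at 155, 170 and 157 CPM in monolayers. As with ST14, control ALI library 2 was the lowest of the 9. Silencing gave a log2 fold change of -0.01 (SE 0.31, 95% interval -0.76 to 0.75, adjusted p = 0.997) and differentiation 0.28 (adjusted p = 0.488). Without control ALI library 2, SPINT1 was higher in control ALI libraries than in monolayers by 0.59 (adjusted p = 0.0287), and by 0.60 with both ALI libraries numbered 2 left out (adjusted p = 0.0124).

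HAI-2, the product of SPINT2 (chromosome 19, 38755098 to 38783254, plus strand), inhibits both prostasin and matriptase. It was the most even of the 10 genes, at 342, 413 and 312 CPM in silenced ALI libraries, at 307, 384 and 371 CPM in control ALI libraries, and at 409, 321 and 323 CPM in monolayers. The log2 fold change was 0.01 on silencing (SE 0.21, 95% interval -0.52 to 0.53, adjusted p = 0.996) and 0.01 on differentiation (adjusted p = 0.965). The silencing interval leaves room for a change of up to 0.53 on the log2 scale.

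The balance of protease to inhibitor was followed as the ratio of counts within a library, which does not depend on scaling between libraries. Counts are not divided by transcript length, so a ratio above 1 does not show that the protease transcript was the more abundant. In RPKM (reads per length of transcript and depth of library) ST14 stood at 76.4, 43.2 and 50.3 in silenced ALI libraries, below SPINT1 at 81.9, 63.8 and 62.1. The ST14 to SPINT1 ratio was 1.27, 0.921 and 1.10 in silenced ALI libraries, against 0.806, 0.611 and 0.806 in control ALI libraries, and these groups did not overlap. It was 0.939, 0.786 and 0.828 in monolayers, which overlap the control ALI libraries. The mean log2 ratio was 0.12 ± 0.23 in silenced ALI libraries and -0.44 ± 0.23 in control ALI libraries (SD, n = 3 each). This difference of 0.57 had p = 0.10 in the exact two-sided permutation test, the smallest p that 3 against 3 libraries can give. Its adjusted p was 0.4 over the 8 ratio comparisons planned. For the other ratios the silenced and control groups overlapped. ST14 to SPINT2 differed by 0.65 on silencing (exact permutation p = 0.40, adjusted 0.64), and PRSS8 to SPINT1 and PRSS8 to SPINT2 by 0.25 and 0.33 (exact permutation p = 0.60 and 0.50, adjusted 0.686 and 0.667). The ST14 to SPINT2 difference was 0.04 without control ALI library 2 and 0.38 to 0.97 when another ALI library was left out. Between control ALI libraries and monolayers, PRSS8 to SPINT1 was 0.514, 0.831 and 0.569 in control ALI libraries, against 0.412, 0.460 and 0.482 in monolayers. That difference of 0.47 also had p = 0.10 in the exact permutation test and an adjusted p of 0.4. For PRSS8 to SPINT2 the difference was larger, at 0.63 (exact permutation p = 0.30, adjusted 0.6). ST14 to SPINT1 differed by -0.21 (exact permutation p = 0.30, adjusted 0.6) and ST14 to SPINT2 by -0.05.

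**Figure D3:**
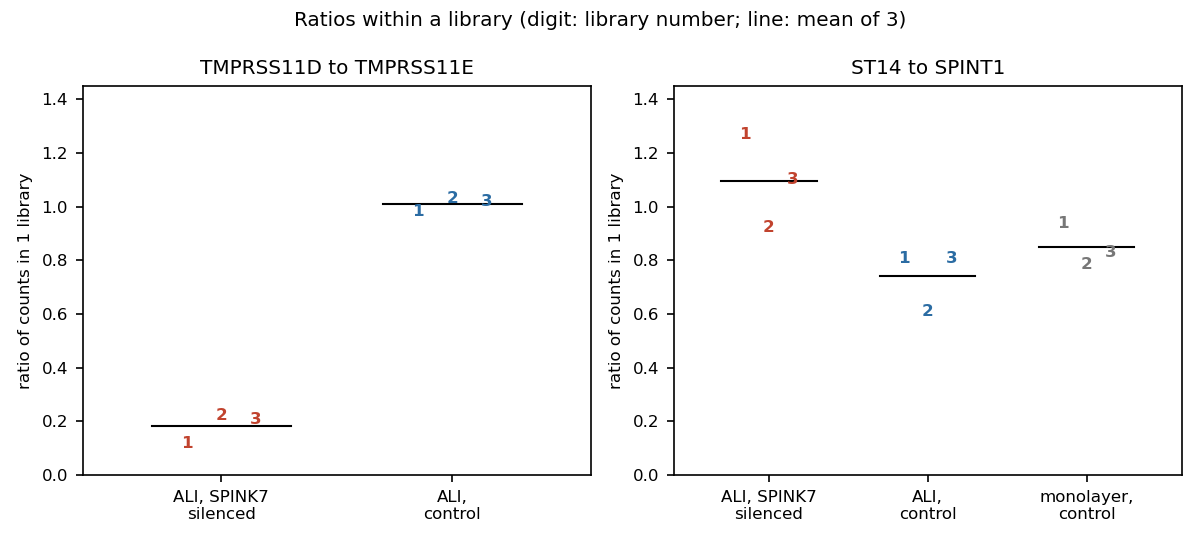
Ratio of counts within each library on the vertical axis, by group, for TMPRSS11D to TMPRSS11E on the left and ST14 to SPINT1 on the right, with the library number as the point and the mean as the line. The counts are not divided by transcript length. TMPRSS11D to TMPRSS11E lies at 0.118 to 0.220 in silenced ALI libraries and at 0.983 to 1.03 in control ALI libraries, and ST14 to SPINT1 lies at 0.921 to 1.27 in silenced ALI libraries and at 0.611 to 0.806 in control ALI libraries.

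TMPRSS4, TMPRSS11D and TMPRSS11E are transmembrane proteases of the same wider family as matriptase. TMPRSS4 (chromosome 11, 117947727 to 117990556, plus strand), known from epithelial tumours, stood at 54.0, 132 and 51.9 CPM in silenced ALI libraries, at 31.6, 65.0 and 41.5 CPM in control ALI libraries, and at 0.212, 0 and 0 CPM in monolayers. Unlike ST14 and SPINT1, it was highest in the library numbered 2 of each ALI group. With 1143 counts in control ALI libraries and 3 counts in monolayers, its ratio was 512 (exact 95% counting interval 175 to 2487), and it rose with an adjusted p = 2.25e-05. Silencing gave a log2 change of 0.79 (SE 0.45, adjusted p = 0.652), with overlapping groups. An antisense gene, TMPRSS4-AS1, overlaps it and had 1 count in all 9 libraries together. Whether the counting used strand is not given in the sources used here. Reads of TMPRSS4-AS1 could thus stand among those of TMPRSS4.

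TMPRSS11D, also called human airway trypsin-like protease, and TMPRSS11E, also called DESC1, are paralogs in a cluster on chromosome 4. Their values after silencing were unlike, a difference that was followed only after the values had been seen. TMPRSS11D (68686594 to 68749716, minus strand) stood at 2.99, 15.3 and 9.01 CPM in silenced ALI libraries, at 47.7, 29.0 and 32.3 CPM in control ALI libraries, and at 0, 0.101 and 0.319 CPM in monolayers. The highest silenced ALI library was below the lowest control ALI library. TMPRSS11E (69313167 to 69363322, plus strand) stood at 25.4, 69.5 and 43.5 CPM in silenced ALI libraries, at 48.5, 28.3 and 31.5 CPM in control ALI libraries, and at 0.921, 0.506 and 0.426 CPM in monolayers. Its ALI groups overlapped.

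On differentiation TMPRSS11D rose by 8.08 (SE 0.84, adjusted p = 6.56e-05) and TMPRSS11E by 5.78 (SE 0.50, adjusted p = 2.12e-05) on the log2 scale. The rise of TMPRSS11D was 7.36 without monolayer library 1 and 9.39 without monolayer library 3. TMPRSS11D had 4 counts over the 3 monolayers, so the size of its rise is uncertain, at 3.42 to 9.39 over the 22 alternatives. On silencing TMPRSS11D had a log2 fold change of -1.98 (SE 0.53, 95% interval -3.29 to -0.68, adjusted p = 0.149). It passed the test with DESeq2 (adjusted p = 0.0136), without silenced ALI library 2 (-2.63, adjusted p = 0.0497) and when both ALI libraries numbered 2 were left out (-2.76, adjusted p = 0.00536), and its adjusted p lay between 0.00536 and 0.402 over the 22 alternatives. TMPRSS11E had a log2 change of 0.36 (SE 0.37, adjusted p = 0.791). Without silenced ALI library 2 its change was -0.09, and with both ALI libraries numbered 2 left out -0.22.

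Within each library the TMPRSS11D to TMPRSS11E ratio of counts was 0.118, 0.220 and 0.207 in silenced ALI libraries, against 0.983, 1.03 and 1.02 in control ALI libraries. The mean log2 ratio was -2.51 ± 0.50 in silenced ALI libraries and 0.02 ± 0.03 in control ALI libraries (SD, n = 3 each), and the groups were far apart on this scale, also in the libraries numbered 2. The ratio was chosen after its values had been seen, so it is a description. Its difference of -2.53 had p = 0.10 in the exact permutation test, the smallest p that 3 against 3 libraries can give. Because of that choice the p adds no support, and it was left out of the adjustment.

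The other genes of the cluster, taken from the list of other membrane-anchored proteases, lie between these ends. TMPRSS11A (68776019 to 68829232, minus strand) averaged 2.08 ± 1.26 CPM in silenced ALI libraries and 5.93 ± 1.66 CPM in control ALI libraries, a log2 change of -1.48 (SE 0.54, adjusted p = 0.355) with no overlap. TMPRSS11F (68918916 to 68995587, minus strand) averaged 28.6 ± 9.52 CPM in silenced ALI libraries and 25.8 ± 8.21 CPM in control ALI libraries, a log2 fold change of 0.15 (adjusted p = 0.896). TMPRSS11B (69092371 to 69111412, minus strand) averaged 16.6 ± 11.3 CPM in silenced ALI libraries and 51.7 ± 28.8 CPM in control ALI libraries, a log2 change of -1.63 (SE 0.52, adjusted p = 0.243) with no overlap. Along the chromosome TMPRSS11F, whose groups overlapped, stands between TMPRSS11A and TMPRSS11B, whose groups did not. Of all tested genes 6.34% were lower without overlap on silencing and 5.76% higher. The cluster was added after its values were seen, so this order is a description. TMPRSS11A reached the filter on low counts in 3 control but only 2 silenced ALI libraries, so its lower value was partly built into its being tested. Without both ALI libraries numbered 2, TMPRSS11B fell by 2.52 (adjusted p = 0.00656) and TMPRSS11A had -1.98 (adjusted p = 0.0552).

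The promoters of TMPRSS11D and TMPRSS11E are shown because these paralogs had unlike values after silencing. Each sequence is the 250 bases before the annotated start from RefSeq (GRCh38.p14), read in the direction of the gene, at chr4:67884003-67884252 on the minus strand for TMPRSS11D and chr4:68447213-68447462 on the plus strand for TMPRSS11E. Capitals mark matches on either strand to any of 5 motifs: the CCAAT box with the letters CCAAT, the box with the letters TATAAA, the GC box with the letters GGGCGG, the AP-1 motif with the letters TGANTCA, and the grainyhead-like motif with the letters AACCNGTT.
TMPRSS11D: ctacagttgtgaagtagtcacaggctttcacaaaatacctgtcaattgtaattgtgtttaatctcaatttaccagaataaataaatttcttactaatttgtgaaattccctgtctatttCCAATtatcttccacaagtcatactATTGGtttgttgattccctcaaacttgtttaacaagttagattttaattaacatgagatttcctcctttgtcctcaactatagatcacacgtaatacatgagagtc
TMPRSS11E: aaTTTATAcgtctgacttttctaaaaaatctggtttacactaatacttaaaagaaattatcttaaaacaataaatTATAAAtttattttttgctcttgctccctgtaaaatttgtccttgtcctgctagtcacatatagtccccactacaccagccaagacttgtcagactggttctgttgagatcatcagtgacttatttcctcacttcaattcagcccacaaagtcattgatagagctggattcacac
The TMPRSS11D sequence holds 2 matches to CCAAT, 131 to 127 and 106 to 102 bases before the start, and no match to TATAAA. The TMPRSS11E sequence holds 2 matches to TATAAA, 248 to 243 and 175 to 170 bases before the start, and no match to CCAAT. Of 35116 promoters of the same length, 32.0% hold CCAAT and 10.7% hold TATAAA, so neither is rare. No match to the other motifs lies in either window. A match is a run of letters and not a measured site.

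PRSS22 (chromosome 16, 2902728 to 2908171, minus strand) encodes tryptase epsilon. PRSS22 stood at 10.7, 35.2 and 9.01 CPM in silenced ALI libraries, at 23.6, 15.9 and 30.7 CPM in control ALI libraries, and at 1.35, 2.12 and 1.38 CPM in monolayers. On differentiation its log2 rise was 3.85 (SE 0.57, adjusted p = 0.000624), the smallest rise of the 6 genes. Silencing gave -0.35 (SE 0.48, adjusted p = 0.844), with silenced ALI library 2 above and control ALI library 2 below the others of their groups. With both of these left out, PRSS22 fell by 1.46 (adjusted p = 0.00481).

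PRSS27 (chromosome 16, 2762423 to 2770552, minus strand) encodes marapsin, a protease known from stratified squamous epithelia. PRSS27 stood at 6.91, 17.1 and 7.26 CPM in silenced ALI libraries, at 26.3, 11.5 and 34.0 CPM in control ALI libraries, and at 0.142, 0.304 and 0.106 CPM in monolayers. The same pattern of libraries numbered 2 was present as for PRSS22. It rose by 6.96 on differentiation (SE 0.68, adjusted p = 4.48e-05). With 6 counts over the 3 monolayers the size of this rise is uncertain, at 3.54 to 7.44 over the 22 alternatives. Silencing gave -1.19 (SE 0.45, 95% interval -2.30 to -0.08, adjusted p = 0.392). With both ALI libraries numbered 2 left out it fell by 2.09 (adjusted p = 0.000344).

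**Figure D4:**
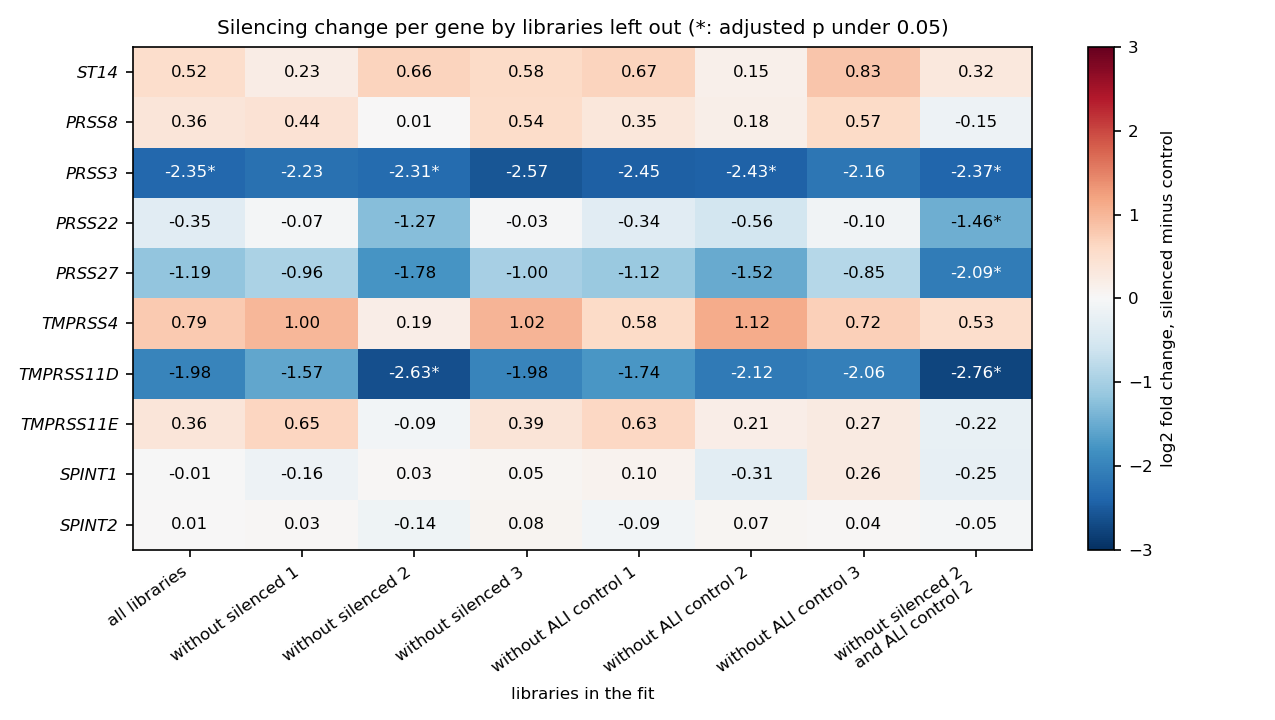
Silencing change of each gene as log2 fold change, silenced minus control ALI libraries, by colour and number, in the fit of all libraries and in fits that leave out the ALI libraries named under each column. A star marks an adjusted p under 0.05. Only PRSS3 has a star in the first column, and without both libraries numbered 2 PRSS3, PRSS22, PRSS27 and TMPRSS11D have one.

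PRSS3 (chromosome 9, 33750464 to 33799229, plus strand) encodes mesotrypsin, a trypsin that resists many trypsin inhibitors and cleaves some of them. PRSS3 had 24, 36 and 30 counts in silenced ALI libraries, 90, 99 and 164 counts in control ALI libraries, and 0 counts in all 3 monolayers. Its level was 2.24, 2.47 and 3.51 CPM in silenced ALI libraries, against 12.1, 12.5 and 17.3 CPM in control ALI libraries. The ranges did not overlap, and the libraries numbered 2 did not stand apart for this gene. Against a floor of 3 counts over the monolayers it was at least 158-fold higher in control ALI libraries and at least 29.6-fold higher in silenced ALI libraries.

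Silencing gave PRSS3 a log2 change of -2.35 (SE 0.32, 95% interval -3.15 to -1.56, adjusted p = 0.0176), lower in 3 of 3 silenced libraries. The call held in 17 of 22 alternatives, with adjusted p between 4.42e-08 and 0.0998. It was lost without control ALI library 1 (0.0641) or 3 (0.0794), without silenced ALI library 1 (0.0998) or 3 (0.0691), and when the transcript row with the most counts was used alone (-3.23, adjusted p = 0.0836). The deposited tables list PRSS3 in 3 transcript rows, which held 33.3% of its counts each in 5 ALI libraries, while control ALI library 3 had 100% in the first row. Across genes with 3 rows, the summed counts of libraries with equal rows lay -0.20 on the log2 scale from those with a single filled row in the same group, at the median of 40 pairs of libraries. Counting every read in each row would have given 1.58, so the rows were summed. Near-identical trypsinogen genes were low, with PRSS1 at most 1.89 CPM and PRSS2 at 0, and the reads of PRSS3 are uncertain to the extent that the counting could split them among these.

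The promoter in RefSeq's table for PRSS3, the gene that fell, lies at chr9:33795311-33795560 on the plus strand of GRCh38.p14, and the deposited rows do not tell which start of the gene was in use.
PRSS3: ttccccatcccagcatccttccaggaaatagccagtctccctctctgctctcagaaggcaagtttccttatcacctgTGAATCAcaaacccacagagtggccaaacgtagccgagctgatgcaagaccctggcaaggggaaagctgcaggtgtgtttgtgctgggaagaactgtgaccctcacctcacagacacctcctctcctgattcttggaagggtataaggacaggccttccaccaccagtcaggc
Capitals mark a match to TGANTCA, 173 to 167 bases before this start, which 6.57% of the 35116 promoters also hold. Of the 10 genes 5 had an entry in that table.

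Per length, SPINT2 had the highest mean of the 10 genes in every group and SPINT1 the next. In deposited RPKM (reads per length of transcript and depth of library), SPINT2 averaged 173 ± 28.9 in silenced ALI libraries, 158 ± 14.3 in control ALI libraries and 177 ± 23.6 in monolayers (SD, n = 3 each), above all others without overlap. SPINT1, PRSS8 and ST14 followed in silenced ALI libraries at 69.3 ± 10.9, 66.5 ± 24.8 and 56.6 ± 17.5 RPKM, and their ranges overlap. Their order was the same in control ALI libraries, at 65.6 ± 30.5, 48.2 ± 15.7 and 37.3 ± 20.7 RPKM. In monolayers SPINT1 stood at 59.7 ± 2.98 RPKM, above ST14 at 37.2 ± 2.01 and PRSS8 at 33.7 ± 3.70, whose ranges overlap with each other.

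The order of the lower genes differed between the groups. In silenced ALI libraries TMPRSS4 (19.6 ± 11.5 RPKM) and TMPRSS11E (18.8 ± 9.28) stood above PRSS22 (11.5 ± 9.36) and PRSS27 (6.19 ± 3.53), with each range overlapping the next. PRSS3 (2.91 ± 0.756), below PRSS27 without overlap, and TMPRSS11D (2.85 ± 1.96) came last. In control ALI libraries the 6 lower genes lay close together, between 10.3 ± 2.99 RPKM for TMPRSS4 and 13.6 ± 5.01 for PRSS22, and each range overlapped the next, that of ST14 included. In monolayers PRSS22 stood at 1.05 ± 0.285 RPKM and the other 5 at 0.259 or less.

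**Figure D5:**
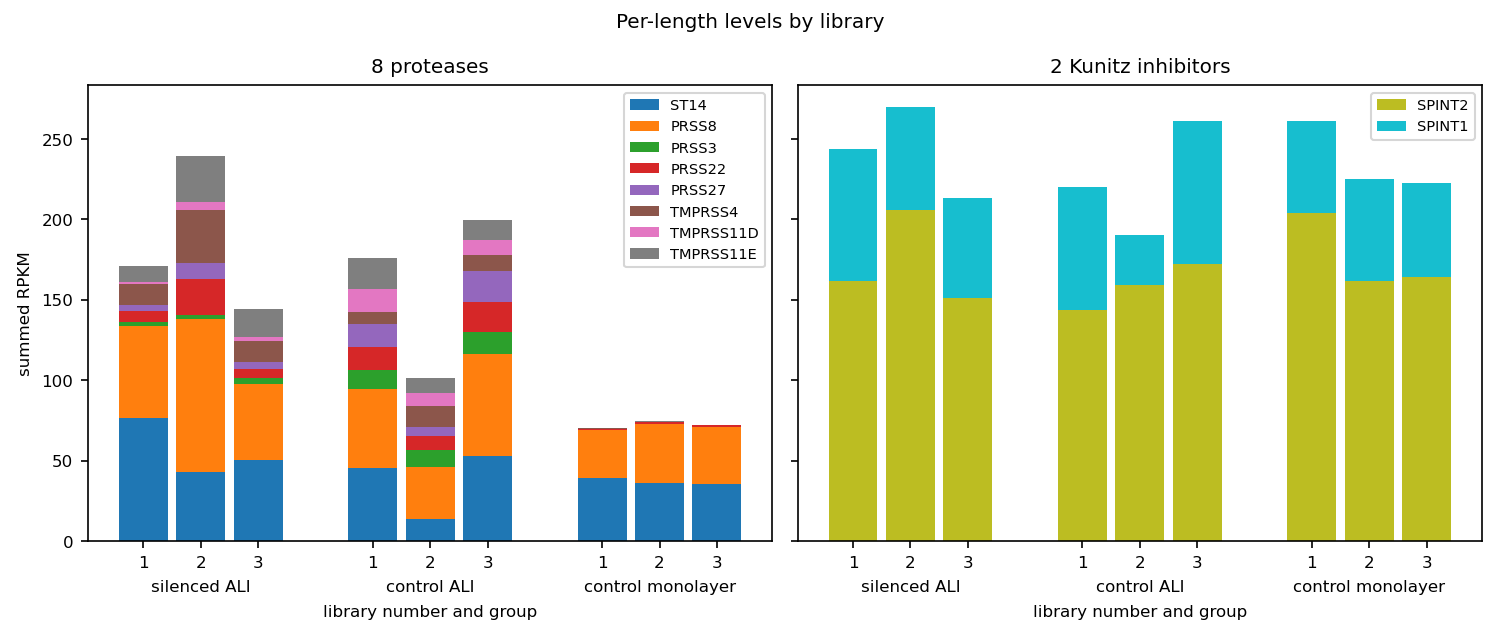
Summed RPKM on the vertical axis for each library, with the 8 proteases stacked on the left and the 2 inhibitors on the right. The proteases sum to 144 to 239 RPKM in silenced ALI libraries, 102 to 200 in control ALI libraries and 70.4 to 74.5 in monolayers, while the inhibitors lie at 190 to 270 RPKM in all 9 libraries.

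Summed over the 8 proteases, RPKM was 171, 239 and 144 in silenced ALI libraries, 176, 102 and 200 in control ALI libraries and 70.4, 74.5 and 72.4 in monolayers. Every ALI library was above every monolayer, and the ALI groups overlapped. ST14 and PRSS8 made up 97.6% to 98.3% of the protease sum in monolayers. Their share was 78.4%, 57.6% and 67.6% in silenced ALI libraries, against 53.7%, 45.2% and 58.2% in control ALI libraries, and these overlap by a narrow margin. The inhibitors together stood at 1.43, 1.13 and 1.48 times the protease sum in silenced ALI libraries, at 1.25, 1.87 and 1.31 times in control ALI libraries, and at 3.71, 3.02 and 3.08 times in monolayers. In bulk RNA a larger share of expressing cells and more RNA per cell cannot be told apart.

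Silenced ALI libraries were also compared with monolayers. This comparison shares its libraries with the other comparisons and differs in silencing and culture together. The same 6 genes that rose in control ALI libraries passed here, with log2 fold changes of 3.51 for PRSS22 (adjusted p = 0.00123), 5.77 for PRSS27 (0.000178), 6.09 for TMPRSS11D (0.000491) and 6.14 for TMPRSS11E (1.89e-05), with a ratio of 968 for TMPRSS4 (exact 95% counting interval 331 to 4699), and with PRSS3 at its lower bound given above. Without silenced ALI library 2 the log2 fold change was 2.59 for PRSS22, 5.18 for PRSS27 and 5.45 for TMPRSS11D, and PRSS22 stood at 2.62 with both ALI libraries numbered 2 left out. That of TMPRSS11D was 5.37 without monolayer library 1 and 7.39 without monolayer library 3. PRSS8 passed in addition, at 1.04 (SE 0.29, adjusted p = 0.021). The call did not hold without silenced ALI library 2 (0.077) and without monolayer library 1 (0.0896), 2 (0.0639) or 3 (0.0693), nor with monolayer libraries 2 and 3 summed (1.07, adjusted p = 0.0669). Altogether 7 of the 10 genes rose and 0 fell, where 15.8% of all tested genes rose and 15.9% fell (31.7% together). The CPM ranges did not overlap for 9 of the 10, all higher in silenced ALI libraries, where 28.0% of all tested genes were higher without overlap and 27.7% lower. Their median was 4.64 on the log2 scale, or 4.20 with PRSS3 at its bound, beside 0.04 for all tested genes. ST14 (0.67, adjusted p = 0.224), SPINT1 (0.28, 0.531) and SPINT2 (0.02, 0.953) did not pass. ST14 passed without both ALI libraries numbered 2 (0.84, adjusted p = 0.0032), without control ALI library 2 (0.67, adjusted p = 0.0314) and with only the silenced ALI libraries and monolayers in the fit (0.68, adjusted p = 0.0411). Control ALI library 2 is in neither group of this comparison and enters only through the shared fit.

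Among 19 other membrane-anchored serine proteases 5 passed the filter on low counts. These 5 reached it only in ALI libraries, so their being higher there is a description and not a count in support of a direction. Each of them had an adjusted p under 0.05 on differentiation, where 20.3% of all tested genes rose. TMPRSS13, which is known from the epidermis of mice, averaged 54.7 ± 8.55 CPM in control ALI libraries and 0.0472 ± 0.0818 CPM in monolayers (SD, n = 3 each). With 2 counts in the monolayers its ratio was 923 (exact 95% counting interval 255 to 7626, adjusted p = 9.17e-07). TMPRSS11B rose by 7.55 (adjusted p = 5.49e-05) and TMPRSS11F by 6.88 (5.68e-06). TMPRSS2, which had 78 counts in control ALI libraries and 0 in monolayers, was at least 34.9-fold higher (adjusted p = 0.00468). On silencing 0 of the 5 passed, where 0.929% of all tested genes passed. Their median was -1.48, beside 0.01 for all tested genes. TMPRSS2 reached the filter in 0 silenced and 3 control ALI libraries, and TMPRSS11A, whose own change is this median, in 2 and 3. Lower values on silencing were thus partly built into their being tested, and the median is a description. TMPRSS13 was at 47.9 ± 1.24 CPM in silenced ALI libraries against 54.7 ± 8.55 CPM in control ALI libraries. Its log2 fold change was -0.19 (95% interval -0.84 to 0.45, adjusted p = 0.84).

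Of 22 substrates and partners of these proteases 17 were tested. On differentiation 5 rose and 3 fell, where 20.3% of all tested genes rose and 20.2% fell. Their median log2 fold change was -0.02, beside 0.03 for all tested genes. Of the 17 genes 4 would have missed the filter in monolayers alone, SCNN1B and CLDN7 among them. SCNN1A, a subunit of the epithelial sodium channel, rose by 4.35 (SE 0.61, adjusted p = 0.000441), at 72.3 ± 44.5 CPM in control ALI libraries and 3.45 ± 2.14 CPM in monolayers. SCNN1B, another subunit, had 440 and 2 counts, a ratio of 296 (exact 95% counting interval 81.4 to 2449, adjusted p = 6.45e-05). CLDN7, a tight-junction protein that binds EpCAM, rose by 4.69 (adjusted p = 0.000205). PLAU, the gene of pro-urokinase, fell by 2.69 (SE 0.28, adjusted p = 7.18e-05), at 198 ± 53.4 CPM in control ALI libraries and 1272 ± 20.2 CPM in monolayers. Silencing changed 0 of the 17 past the threshold, where 0.929% of all tested genes passed.

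Of 26 soluble trypsin-like proteases and other inhibitors 13 were tested, of which 3 rose and 8 fell on differentiation. Of all tested genes 20.3% rose and 20.2% fell. The median log2 fold change of the 13 was -1.18, beside 0.03 for all tested genes. SPINK6 reached the filter only in ALI libraries and TFPI only in monolayers. SPINK5, the gene of the Kazal inhibitor LEKTI, rose by 9.94 (SE 0.70, adjusted p = 6.31e-06) and SPINK6, another Kazal inhibitor, by 6.31 (adjusted p = 1.74e-05). TFPI, a Kunitz inhibitor of coagulation, fell by 2.93 (adjusted p = 0.0021) and SERPINA1, the gene of alpha-1 antitrypsin, by 2.29 (adjusted p = 0.00763). Among the inhibitors named here SPINK5 and SPINK6 rose, TFPI and SERPINA1 fell, and SPINT1 and SPINT2 did not pass. On silencing 0 of the 13 passed, where 0.929% of all tested genes passed. SPINK5, which had the highest mean CPM of them, stood at 1073 ± 505 CPM in silenced ALI libraries and 5586 ± 3603 CPM in control ALI libraries without overlap (log2 fold change -2.38, SE 0.50, adjusted p = 0.0593), and passed in 9 of 22 alternatives.

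Likeness was measured as the root mean square difference of centred log2 CPM over the 9 libraries, among 12805 other genes, for the 4 members with the largest silencing change. PRSS3 was most like TGM5 (0.29), LY6D (0.32) and ACER1 (0.36). TGM5, a transglutaminase, averaged 2.66 CPM in silenced ALI libraries, 18.1 CPM in control ALI libraries and 0.0236 CPM in monolayers. TMPRSS11D was most like FAM3D (0.56), ACPP (0.56) and SLC39A2 (0.62), and so had no gene as near to it as PRSS3 had. FAM3D averaged 3.22 CPM in silenced ALI libraries, 23.0 CPM in control ALI libraries and 0.0355 CPM in monolayers. PRSS27 was most like PLA2G2F (0.28), SGPP2 (0.33) and TMEM86A (0.36). TMPRSS4 was most like DHRS9 (0.37), the tight-junction gene OCLN (0.49) and the keratin gene KRT80 (0.56). DHRS9 averaged 74.3 CPM in silenced ALI libraries, 52.8 CPM in control ALI libraries and 0.0472 CPM in monolayers.

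SPINT1 was the other gene with more than 1 transcript row. Its second row held 4.43%, 5.8% and 8.26% of the gene's counts in silenced ALI libraries, 0%, 25.5% and 8.85% in control ALI libraries, and 11.1%, 2.32% and 2.37% in monolayers. The highest share was in control ALI library 2, where the gene had its fewest counts, 813. How the authors divided reads between rows is not given in the sources used here. The shares are a description of the tables.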

How the data were processed

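The deposited tables held 29800 transcript rows per library, each giving a position, a count of reads and an RPKM. Per the submitters' processing notes, the genome build was hg19 and the tools STAR 2.4.2a, Bowtie and MACS2, with no roles. Which program produced the counts, with which annotation and use of strand, is not given in the sources used here. The deposited counts were whole numbers, not normalized. The RPKM values were computed by the authors from read totals that do not scale as the summed counts do. Rows of a gene on a chromosome were summed here (24672 genes). Rows naming several genes (511) held 0.41% to 0.55% of counts.

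Counts were tested with edgeR 4.0.16 (R 4.3.3): TMM scaling, filterByExpr, and a quasi-likelihood fit of the 9 libraries with the robust option (12806 genes, 6 residual degrees of freedom). Benjamini-Hochberg adjustment ran over all tested genes of a comparison, with a threshold of 0.05. SEs and 95% intervals came from the F statistic. CPM uses TMM-adjusted totals. Intervals and floors of counts cover counting error only. Alternatives included DESeq2 1.42.0 and limma 3.58.1. Ratios were compared by exact permutation.

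The 10 genes, the lists and the settings were chosen with earlier results of these data known. The text names all 10 genes, SPINK7, up to 4 genes per list that passed with the largest change (else the gene with the highest mean CPM) and the 3 genes most like each of 4 members. The value of 1 gene this rule picks is not reported here. PRSS1, PRSS2 and the silencing values of the TMPRSS11 cluster were added after their values were seen. Entries of the RefSeq promoter table were matched by symbol.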

Additional observations from a re-analysis of the deposited data

How the results depend on the processing

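The 6 members that rose on differentiation passed in all 22 alternatives. All of them but PRSS22 reached the filter on low counts only in ALI libraries, so for these the repeated passing is a description and adds no support. The number of members that rose on differentiation was 7 without silenced ALI library 2, 8 without control ALI library 2 and 9 without both. Over all tested genes 2779, 2528 and 3222 rose in these fits, against 2601 in the fit as reported. Of 660 member values under alternatives 595 kept their direction and side of the threshold, 14 passed only there, 10 no longer passed and 41 changed sign. The number of members that fell on silencing, 1 in the fit as reported, was 2 with the DESeq2 Wald test, 4 without both ALI libraries numbered 2, 0 with only the fullest transcript row of each gene, and 0 to 2 when 1 library was left out (0 without control ALI library 1 or 3 or silenced ALI library 1 or 3, and 2 without silenced ALI library 2). None of the values that changed sign passed the test under the setting that turned it. On differentiation ST14 was -0.03 with limma-voom and -0.20 and -0.21 with limma on log2(RPKM + 1) and log2(RPKM + 0.1), and -0.16 to 0.52 with 1 library left out. On silencing PRSS8 was -0.15 and TMPRSS11E -0.22 without both ALI libraries numbered 2, and TMPRSS11E was -0.09 to 0.65 with 1 library left out. SPINT1 on silencing was 0.09 with limma-voom, 0.20 with both RPKM settings, 0.04 with the replicate block, 0.03 with the fullest row and -0.31 to 0.26 with 1 library left out. SPINT2 on silencing was -0.01 with DESeq2 size factors, the DESeq2 Wald test, 2 groups only, monolayers 2 and 3 summed, and thinned counts, -0.05 without both ALI libraries numbered 2, and -0.14 to 0.08 with 1 library left out. SPINT2 on differentiation was -0.15 and -0.16 on the RPKM scales, -0.04 without both ALI libraries numbered 2, -0.05 with monolayers summed and -0.04 to 0.14 with 1 library left out. Against monolayers, silenced ALI libraries gave SPINT2 -0.03 on both RPKM scales, -0.10 without both ALI libraries numbered 2, -0.05 with monolayers summed and -0.12 to 0.13 with 1 library left out. The log2 ratio difference of ST14 to SPINT2 on differentiation was -0.37 to 0.56, and that of PRSS8 to SPINT1 on silencing -0.09 to 0.45, with 1 library left out. The causes of these shifts were not tested.

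Over all genes, silencing calls numbered 119 and ranged over the settings between 28 (without silenced ALI library 1) and 708 (without both ALI libraries numbered 2). Differentiation calls numbered 5190, between 3580 and 6551. Silenced ALI libraries against monolayers gave 4058, between 2653 and 6459. The RPKM scales moved the median of all genes to -0.13 and -0.176 on differentiation and to 0.099 and 0.139 on silencing, and on log2(RPKM + 1) 36.4% of differentiation calls were higher, against 50.1% in the fit as reported. Of silencing calls 24.4% were higher in the fit as reported, 8.47% with 2 groups only, 39.0% without silenced ALI library 2 and 39.5% without both ALI libraries numbered 2. Same-numbered silenced and control ALI libraries deviated from their group means with r = 0.53, 0.60 and 0.01. Between different numbers r was -0.72 (silenced 1 with control 2) to 0.68 (silenced 1 with control 3). Whether the numbers pair the libraries cannot be told from these values, because each deviation is from a mean of 3 and the libraries numbered 2 stand apart. With the replicate block 1 member fell on silencing, 6 rose on differentiation and silencing calls over all genes numbered 176. PRSS3 has 24 to 36 counts in silenced ALI libraries, and depth limits the precision of genes at such counts.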
